A study of Mus musculus with 6 samples.

Results

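The cadherin superfamily was examined in RNA-seq read counts of primary mouse hepatic stellate cells. Members were the rows whose gene symbol is Cdh or Pcdh followed only by digits, Dchs1 or Dchs2, Fat1 to Fat4, or Celsr1 to Celsr3. This gave 39 of the 22905 genes in the table, and 23 of the 39 had enough reads to be tested. Rows were chosen by symbol and by no measured value, but the family itself was put forward with the PBS and DOX counts of this same comparison known. Every count and p-value for the members is therefore a description and no independent evidence about them.

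All 6 libraries came from mice of the genotype BucheKI/KI-Hep given CCL4 (carbon tetrachloride, a liver toxin used to model fibrosis). The label PBS was on 3 of them and DOX on the other 3, and in the series butyrylcholinesterase was over-expressed in hepatocytes, after which stellate cells were isolated. The promoter that drives the introduced gene, the animals' ages, and whether each library was 1 animal or a pool were not given in the sources used here. The p-values thus cover only how far these samples of a group lie apart, and that distance may be technical. Both groups carried the same genotype and toxin, and what DOX does by itself and what the introduced gene does cannot be told apart.

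Cadherins are single-pass adhesion proteins whose extracellular repeats bind calcium and partner cadherins on a neighbouring cell. Classical cadherins hold adherens junctions together through catenins and actin. Protocadherins adhere more weakly and are best known from neurons, while Fat and Dachsous form a receptor and ligand pair that orients cells in a plane and feeds into Hippo signalling, and Celsr proteins are planar polarity receptors. In liver, VE-cadherin (Cdh5) belongs to endothelium, E-cadherin (Cdh1) to epithelium and N-cadherin (Cdh2) to mesenchymal cells and hepatocytes.

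The classical members fall into type I and type II, and the division can be read in their coding sequence. Type I cadherins dock through 1 tryptophan at the start of the mature protein and type II cadherins through a pair. The coding sequence after the in-frame precursor cleavage site is shown for 6 of the 7 tested classical members, because their levels are described by these classes. Each run is 36 bases (12 codons), 5′ to 3′ on the coding strand, from GENCODE M21 transcripts on GRCm38, with the tryptophan codons TGG in capitals.
Cdh1: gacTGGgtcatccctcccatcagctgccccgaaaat
Cdh3: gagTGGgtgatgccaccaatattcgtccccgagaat
Cdh4: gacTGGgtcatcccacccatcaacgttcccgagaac
Cdh5: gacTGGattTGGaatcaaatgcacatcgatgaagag
Cdh11: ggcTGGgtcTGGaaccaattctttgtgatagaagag
Cdh24: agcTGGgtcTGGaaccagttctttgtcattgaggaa

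The search accepted a cleavage site only where codon 2 was TGG, so every run holds TGG there by construction. Beyond it, the type I runs held no TGG and the type II runs held TGG at codon 4. The same search found the site in 14 classical members, 4 of type I and 10 of type II, and the split at codon 4 held in all 14. Cdh2, on chromosome 18, was left out before the search, so its absence is no failure to find the site. The Cdh1 stretch lies in exon 4 at chr8:106653582-106653617 (plus strand), the Cdh3 stretch in exon 4 at chr8:106536618-106536653 (plus), and the Cdh4 stretch in exon 4 at chr2:179797560-179797595 (plus). The Cdh5 stretch lies in exon 2 at chr8:104113034-104113069 (plus), the Cdh11 stretch in exon 3 at chr8:102679645-102679680 (minus), and the Cdh24 stretch in exon 2 at chr14:54639377-54639412 (minus).

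Library totals ran from 36220282 to 37707364 counts, so 1 read was worth 0.0253 to 0.0293 CPM (counts scaled to library size with TMM factors) and 3 reads, the limit that a count of 0 allows, 0.0758 to 0.0878 CPM. Bche, the introduced gene, had 8, 26 and 14 counts across PBS replicates 1 to 3 and 1225, 582 and 3639 across DOX replicates 1 to 3. The DOX libraries had the same order in the summed hepatocyte markers given below, and the PBS libraries did not. Which cells the Bche reads came from was not tested. The labelled cell type was checked against markers, none of which was at 0 in all libraries. The 16 stellate markers summed to 656 to 1478 CPM in PBS and 807 to 1280 CPM in DOX, led by Dcn and Ecm1, while the defining gene Lrat stood at only 2.00 ± 1.32 CPM with PBS and 2.41 ± 0.563 CPM with DOX (SD, n = 3). The 18 endothelial markers, led by Pecam1 and Lyve1, summed to 5672 to 6938 CPM in PBS and 4970 to 5674 CPM in DOX, and the 16 macrophage markers, led by Mpeg1 and Lyz2, to 5113 to 7462 CPM in PBS and 8870 to 15940 CPM in DOX. The values are therefore those of a mixture of cell types, in which fewer cells of a type and less RNA per cell cannot be told apart.

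Dchs1 and Pcdh12 fell in DOX, and 0 members rose. Dchs1, the Dachsous ligand of Fat4, was 2.09-fold lower and Pcdh12, an endothelial protocadherin, 3.50-fold lower. These were 2 of the 23 tested members (edgeR quasi-likelihood test, adjusted p under 0.05 over all genes), where 6.41% of the 14439 genes tested were called, 4.38% higher and 2.04% lower. By library totals alone 611 genes were called higher and 730 lower, in place of 632 and 294, and the median of all genes shifted by -0.13, yet the same pair of members was called. Of the 23, 16 had a negative and 7 a positive log2 fold change, with a median of -0.18 against -0.01 for all genes tested. An unadjusted p under 0.05 was reached by 6 members, 5 lower and 1 higher, beside 28.7% of all genes (12.7% lower and 15.9% higher). Among other genes at least 8000 bases long, as 15 of the 23 tested members were, 22.0% were lower at this threshold. In 5 members the groups did not overlap, 4 lower and 1 higher, beside 34.6% of all genes (17.7% lower and 16.9% higher). With the replicate number as a block, 781 of the 14439 genes were called, 622 higher and 159 lower. In that fit Fat1 joined Dchs1 and Pcdh12 as lower. DESeq2, which called 19.8% of its genes (12.3% higher and 7.46% lower), called 3 members lower (Dchs1, Pcdh12 and Fat4) and 1 higher (Cdh1). Limma-voom, which called 5.97% (4.02% higher and 1.95% lower), called Dchs1 and Pcdh12.

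**Figure D1:**
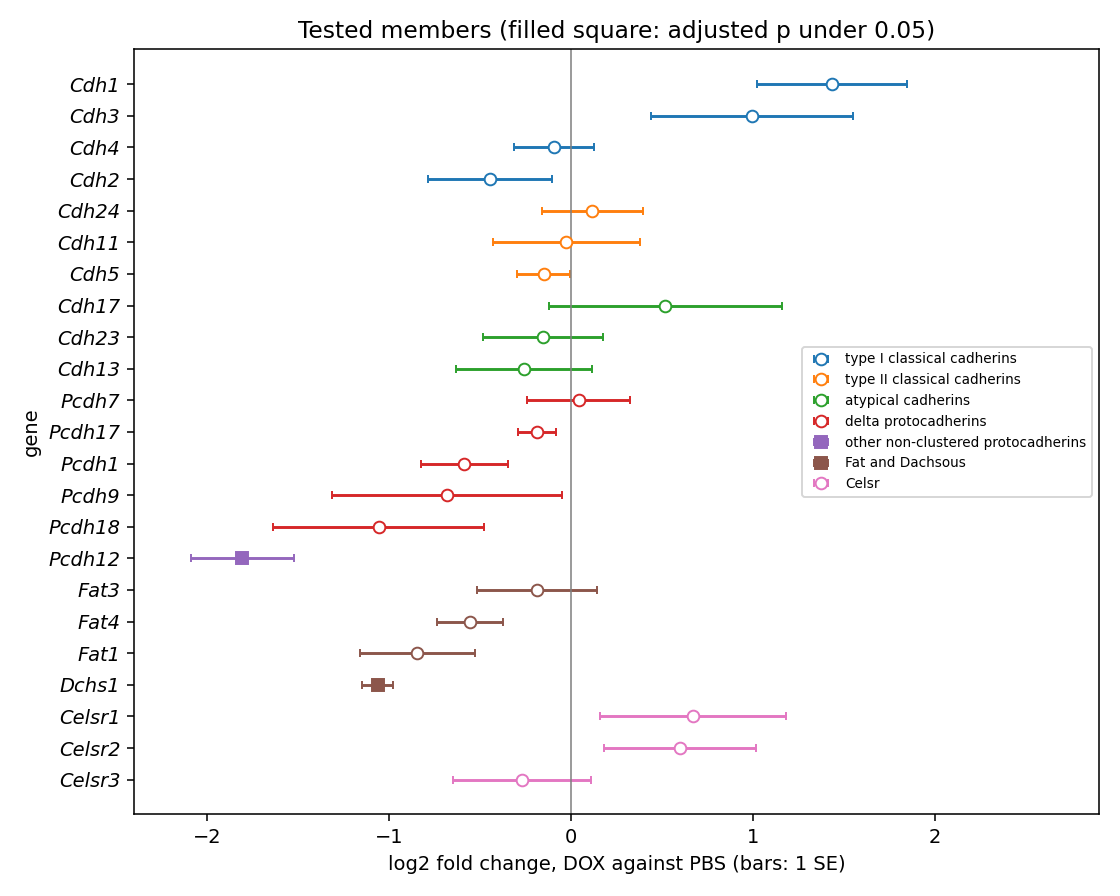
Log2 fold change of DOX against PBS (x axis, bars 1 SE) for the 23 tested members, coloured by class. Filled squares mark Dchs1 and Pcdh12, which passed an adjusted p of 0.05, and all 4 tested Fat and Dachsous genes lie below 0.

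Members differed in level by several orders of magnitude, and Cdh5 took most of the reads. It held 87.5% ± 1.06 of all counts of the 39 members in PBS and 89.1% ± 2.16 in DOX (SD, n = 3 each). Without Cdh5 the members summed to 343, 353 and 427 CPM across PBS replicates 1 to 3 and to 255, 292 and 307 CPM across DOX replicates 1 to 3, so that the PBS libraries were all above the DOX libraries. Per length (FPKM), Cdh5 at 677 ± 71.1 in PBS was followed by Dchs1 (6.37 ± 0.218), Fat4 (3.99 ± 0.963), Pcdh7 (3.88 ± 1.52) and Cdh2 (3.72 ± 1.85), and the last 3 did not differ beyond their spread. In DOX the order after Cdh5 at 557 ± 49.5 was Pcdh7 (3.68 ± 0.930), Cdh1 (3.31 ± 1.36), Dchs1 (2.81 ± 0.315), Cdh2 (2.51 ± 0.345) and Fat4 (2.48 ± 0.210), and no neighbours in that order differed beyond their spread. In 13 members the mean FPKM reached 1 in at least 1 group.

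**Figure D2:**
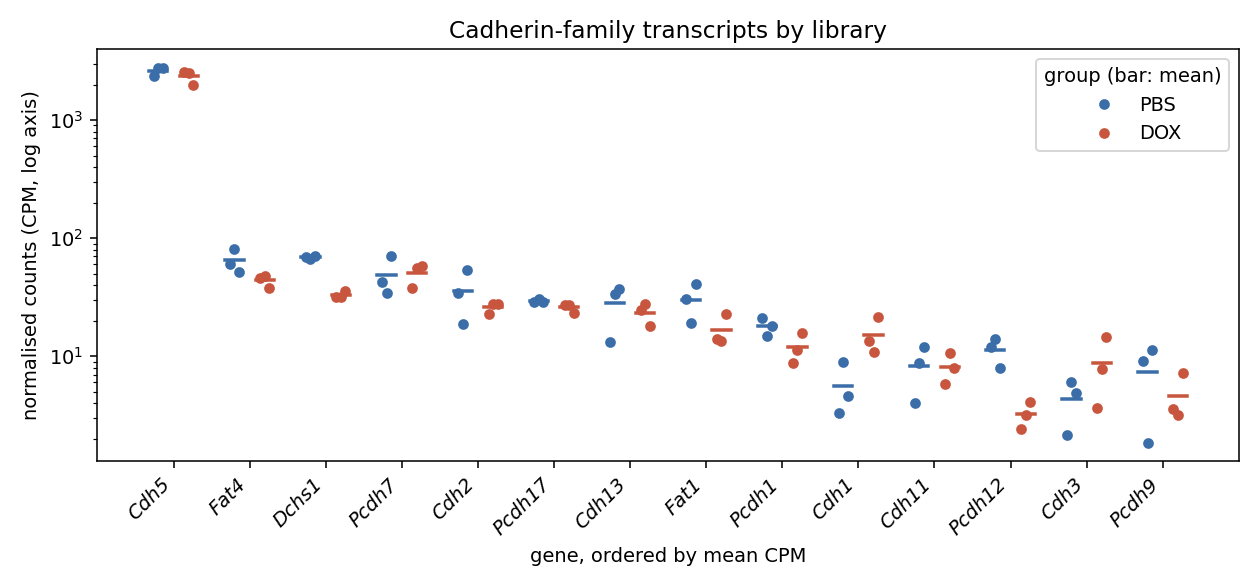
Normalised counts (CPM, log axis) of the 14 most abundant members, 1 point per library and a bar at each group mean. Cdh5 stands at 2001 to 2751 CPM, all others are below 100 CPM, and the Dchs1 and Pcdh12 points of the groups are apart.

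Dchs1 encodes a giant cadherin that is presented by one cell to Fat4 on the next. PBS replicates 1 to 3 held 2621, 2566 and 2818 counts, and DOX replicates 1 to 3 held 1091, 1137 and 1308. Normalised, these were 69.5, 67.1 and 71.2 CPM against 31.9, 32.0 and 35.7 CPM. The libraries of each group were close together and the groups were far apart. The difference was -1.06 on the log2 scale with an SE of 0.08 (edgeR adjusted p = 0.0159), and by p Dchs1 ranked 1 of the 294 genes called lower, though 46 by size. The fold change was between -1.18 and -0.96 in all 18 alternative analyses. It no longer passed when PBS replicate 2 (-1.08, edgeR adjusted p = 0.0663) or PBS replicate 3 (-1.04, edgeR adjusted p = 0.0634) was left out, settings in which edgeR called 0 genes of the whole table (3294 and 3092 at an unadjusted p under 0.05). Dchs1 lies on chromosome 7 from 105752989 to 105788355 (GRCm38.p6, minus strand), and 648 of its exonic bases overlap the opposite-strand gene Gm15645. Whether counting used the strand was not given in the sources used here, so reads of that overlap could belong to either gene. The same holds for the exonic bases that Fat4 shares with C230034O21Rik, which had 3 to 18 counts per library, and with Gm43539, and that Fat1 shares with Gm2366.

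Fat4, the receptor for Dchs1, was second to Cdh5 in mean CPM over all libraries. Its values were 60.7, 81.6 and 52.0 CPM across PBS replicates 1 to 3 and 46.1, 48.2 and 38.01 CPM across DOX replicates 1 to 3. All 3 DOX libraries were below all 3 PBS libraries, but the PBS libraries were spread. The log2 fold change was -0.55 (SE 0.18, edgeR adjusted p = 0.103). DESeq2 called it at an adjusted p of 0.0464, and the log2 fold change was -0.36 without PBS replicate 2, the highest library. Per length, Dchs1 stood at 1.66 ± 0.411 FPKM for each FPKM of Fat4 in PBS and 1.14 ± 0.226 in DOX (SD, n = 3), with overlapping groups.

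Fat1, an atypical cadherin linked to actin dynamics, had 30.6, 19.1 and 40.6 CPM across PBS replicates 1 to 3 and 14.0, 13.4 and 22.9 CPM across DOX replicates 1 to 3. The groups overlapped, since PBS replicate 2 lay below DOX replicate 3. The log2 fold change of -0.84 (SE 0.32) did not pass (edgeR adjusted p = 0.136), and with the replicate number as a block it was -0.82 with an adjusted p of 0.0486. Leaving out PBS replicate 3 gave -0.57 and leaving out DOX replicate 3 gave -1.14. Fat3 had 0.719 ± 0.150 CPM with PBS and 0.630 ± 0.114 CPM with DOX, with overlapping groups (log2 fold change -0.19, SE 0.33, edgeR adjusted p = 0.745). Dchs2 reads numbered 1, 4 and 10 in the PBS and 17, 6 and 2 in the DOX libraries, and Fat2 had 1 count in all 6 libraries together, so neither was tested.

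Genes that act with Fat, Dachsous and Celsr were counted from a list of 20 planar polarity and Fat-Dachsous partners. Of 18 tested, 3 fell and 0 rose, beside 2.04% of all genes called lower and 4.38% higher, with a median log2 fold change of -0.21. Rere, an atrophin corepressor, fell from 263 ± 17.0 to 183 ± 20.6 CPM (edgeR adjusted p = 0.0413), Scrib, a polarity scaffold, from 75.4 ± 2.35 to 59.2 ± 2.57 CPM (0.0455) and Dvl2, a Dishevelled adaptor, from 29.1 ± 0.523 to 22.1 ± 0.594 CPM (0.0455). Fjx1, the mouse relative of the Drosophila kinase that tunes Fat and Dachsous binding, had 7.80 to 19.5 CPM in PBS and 4.33 to 13.0 CPM in DOX (edgeR adjusted p = 0.291).

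The 3 Celsr genes were near the low end of the tested range. Celsr1 had 0.371, 1.73 and 0.960 CPM across PBS replicates 1 to 3 and 1.49, 1.75 and 1.64 CPM across DOX replicates 1 to 3. The DOX libraries were alike and the PBS libraries were not. Celsr1, Celsr2 and Celsr3 had log2 fold changes of 0.67 (SE 0.51), 0.60 (SE 0.42) and -0.27 (SE 0.38), and edgeR adjusted p of 0.429, 0.388 and 0.681.

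Pcdh12, known as VE-cadherin-2, is a protocadherin of endothelial cells and certain trophoblast and mesangial cells. PBS replicates 1 to 3 held 456, 531 and 317 counts, and DOX replicates 1 to 3 held 83, 113 and 150. Normalised, these were 12.1, 13.9 and 8.01 CPM against 2.43, 3.18 and 4.09 CPM. All PBS libraries were above all DOX libraries. As a log2 fold change this is -1.81 (SE 0.28, edgeR adjusted p = 0.0265), with rank 9 by size and 47 by p among the 294 genes called lower. The call ended without any one of PBS replicates 2 and 3 and DOX replicates 1 and 2, with log2 fold changes of -1.63, -2.01, -1.63 and -1.80 and edgeR adjusted p of 0.0784, 0.0739, 0.0758 and 0.0565. On the log2(FPKM + 1) scale, which understates the change of low genes, the difference was -0.99 and passed. Pcdh12 lies on chromosome 18 from 38267092 to 38284401 (GRCm38.p6, minus strand) and shares no exonic base with another annotated gene.

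Of the 8 delta protocadherins, 5 were tested and 0 passed by edgeR, DESeq2 or limma-voom. Only Pcdh1, an adhesion protein of epithelium and endothelium, had an unadjusted p under 0.05. It had 21.0, 14.7 and 18.1 CPM across PBS replicates 1 to 3 and 8.75, 11.4 and 15.7 CPM across DOX replicates 1 to 3, so that DOX replicate 3 lay above PBS replicate 2. Its log2 fold change of -0.59 (SE 0.24) did not pass (edgeR adjusted p = 0.161), and without DOX replicate 3 it was -0.84 (edgeR adjusted p = 0.0683). Pcdh1 is the neighbour of Pcdh12 on chromosome 18, 55043 bases away.

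Pcdh17 was the steadiest of these. Its values were 28.8, 30.8 and 28.9 CPM across PBS replicates 1 to 3 and 27.2, 27.4 and 23.2 CPM across DOX replicates 1 to 3. The groups did not overlap, although the log2 fold change of -0.18 (SE 0.10) was small and did not pass (edgeR adjusted p = 0.286). Pcdh7, the most abundant delta protocadherin, had 42.6, 34.4 and 70.2 CPM across PBS replicates 1 to 3 and 37.7, 55.9 and 57.9 CPM across DOX replicates 1 to 3. The groups overlapped fully, and the fold change of 0.04 on the log2 scale (SE 0.28, edgeR adjusted p = 0.940) took either sign, from -0.16 to 0.39, when single libraries were left out.

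Pcdh9 and Pcdh18 varied widely between libraries of a group. Pcdh9 had 9.12, 1.86 and 11.2 CPM across PBS replicates 1 to 3 and 3.54, 3.15 and 7.15 CPM in DOX. Pcdh18 had 2.73, 0.837 and 2.42 CPM in PBS and 0.585, 0.648 and 1.64 CPM in DOX. In both genes PBS replicate 2 was the lowest PBS library and DOX replicate 3 the highest DOX library. Their log2 fold changes were -0.68 (SE 0.63) and -1.06 (SE 0.58), with edgeR adjusted p of 0.518 and 0.274. Pcdh8, Pcdh10 and Pcdh19 had at most 16 counts in any library and were not tested, as were Pcdh15 and Pcdh20 outside the delta group.

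Cdh5, the adhesion protein of endothelial junctions, did not pass. PBS replicates 1 to 3 held 88702, 105140 and 108528 counts, and DOX replicates 1 to 3 held 86986, 89621 and 73340. Normalised, these were 2352, 2751 and 2741 CPM against 2546, 2524 and 2001 CPM. The groups overlapped, with DOX replicate 3 the lowest of all libraries. The log2 fold change was -0.15 (SE 0.15, edgeR adjusted p = 0.543), and -0.045 without DOX replicate 3.

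Because endothelial transcripts were abundant, members were also set against the summed counts of the 18 endothelial markers, none of which is a member. For every 1000 such counts there were 415, 417 and 395 of Cdh5 across PBS replicates 1 to 3 and 457, 445 and 403 across DOX replicates 1 to 3. For Dchs1 there were 12.3, 10.2 and 10.3 in PBS against 5.73, 5.64 and 7.18 in DOX, and for Pcdh12 2.13, 2.10 and 1.15 in PBS against 0.436, 0.561 and 0.823 in DOX. On this scale the groups overlapped for Cdh5 and stayed apart for 5 of the 23 tested members, lower in Dchs1 and Pcdh12 and higher in Cdh1, Celsr1 and Celsr2. Of the 14421 tested genes outside the markers they stayed apart in 33.2%, 3.32% lower and 29.8% higher. The log2 difference was 0.09 for Cdh5, -0.82 for Dchs1 and -1.56 for Pcdh12, with exact two-sided permutation p of 0.3, 0.1 and 0.1, where 0.1 is the smallest that 3 against 3 can give. It was 1.74 for Cdh1, 1.16 for Celsr1 and 0.85 for Celsr2, each with an exact permutation p of 0.1. Celsr2 had only 8, 16 and 16 counts across PBS replicates 1 to 3 and 13, 19 and 24 across DOX replicates 1 to 3. Per 1000 marker counts, the highest PBS and lowest DOX libraries were at 0.0634 and 0.0682 for Celsr2 and 0.262 and 0.268 for Celsr1. The CPM of both genes overlapped between the groups. These libraries were PBS replicate 2 and DOX replicate 1, with 16 and 13 counts of Celsr2 and 66 and 51 of Celsr1. DOX replicate 1 was thus the higher only per marker count, so both separations rest on the marker sum, and that of Celsr2 also on few reads. For Pcdh17 the log2 difference was 0.05 and for Fat4 -0.29 (exact permutation p = 0.7 and 0.4), and the Fat4 groups overlapped. The sum contains Ptprb and Tek, which fell themselves. Of its 18 markers, 15 had a negative and 3 a positive log2 fold change, with a median of -0.26 against -0.01 for all genes tested. In edgeR, 7 were lower and 1 higher at an unadjusted p under 0.05, beside 12.7% and 15.9% of all genes. DESeq2 called 7 lower and 1 higher, and limma-voom 3 lower. Other cell types may also express these members, and the part of the falling markers in these ratios was not tested.

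**Figure D3:**
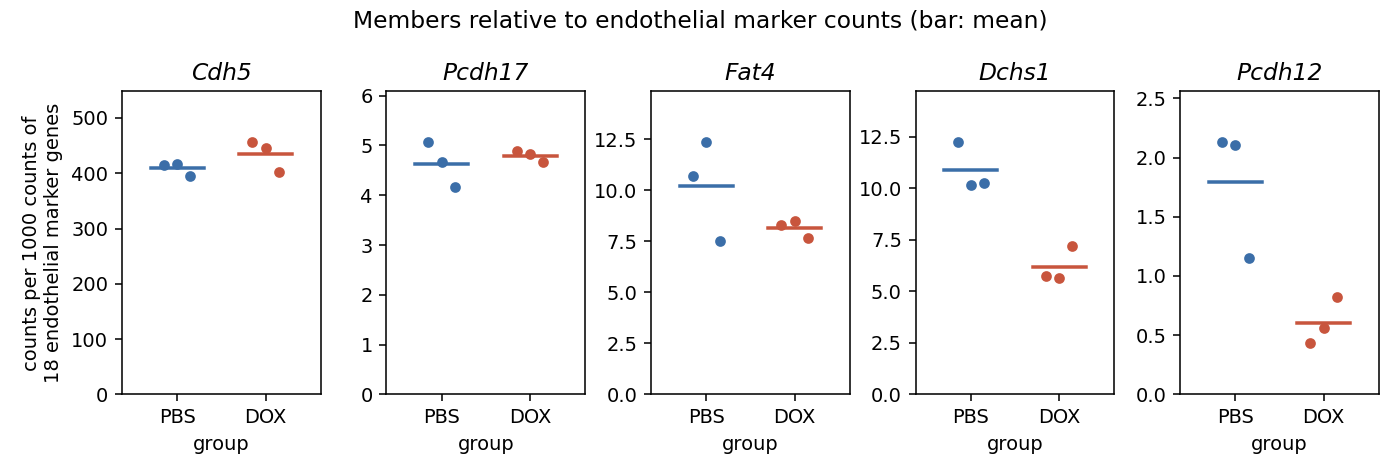
Counts of 5 members per 1000 counts of the 18 endothelial markers (y axes from 0, 1 point per library, bar at the mean). Cdh5, Pcdh17 and Fat4 overlap between the groups, while the DOX points of Dchs1 (5.64 to 7.18) and Pcdh12 (0.436 to 0.823) lie below all PBS points.

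Of 23 tested partners and regulators of VE-cadherin, 2 rose and 2 fell, beside the same shares of all genes. Ptprb, the VE-cadherin phosphatase VE-PTP, fell 1.70-fold and Tek, the angiopoietin receptor, 1.74-fold (edgeR adjusted p = 0.0240 and 0.0311). Ptprj, another receptor phosphatase, rose 2.03-fold and Pdcd10, a cerebral cavernous malformation gene, 1.39-fold (edgeR adjusted p = 0.0247 and 0.0331). Of 17 tested catenins and adherens junction adaptors, edgeR and limma-voom called 0, and DESeq2 called 2 higher and 2 lower. Among them 6 had an unadjusted p under 0.05, 2 higher and 4 lower, beside 15.9% and 12.7% of all genes. Ctnnb1, which encodes beta-catenin, had 1823 ± 92.3 CPM with PBS and 1578 ± 51.6 CPM with DOX (edgeR adjusted p = 0.248).

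The other tested type II cadherins had log2 fold changes near 0. Cdh11, the mesenchymal OB-cadherin, had 4.06, 8.74 and 12.0 CPM across PBS replicates 1 to 3 and 5.82, 10.7 and 7.91 CPM across DOX replicates 1 to 3. The DOX libraries lay inside the PBS range (log2 fold change -0.03, SE 0.40, edgeR adjusted p = 0.975). Cdh24 had 1.21 ± 0.241 CPM with PBS and 1.31 ± 0.113 CPM with DOX (log2 fold change 0.12 with SE 0.28, edgeR adjusted p = 0.818). With standard errors of 0.40 and 0.28, changes of moderate size would not have been detectable for these genes. The remaining type II members Cdh6, Cdh8, Cdh9, Cdh10, Cdh18, Cdh19 and Cdh22 had 1 to 56 counts summed over all libraries and were not tested.

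Among type I cadherins, Cdh1 had the largest positive fold change of the tested members. It had 3.29, 8.95 and 4.62 CPM across PBS replicates 1 to 3 and 13.3, 10.8 and 21.3 CPM across DOX replicates 1 to 3. All DOX libraries were above all PBS libraries. The log2 fold change was 1.43 (SE 0.41), which edgeR did not call (adjusted p = 0.0806) and DESeq2 did (adjusted p = 0.00463), and leaving out single libraries gave 1.11 to 1.94. Cdh3, which encodes P-cadherin and lies 46438 bases from Cdh1 on chromosome 8, had 2.15, 6.02 and 4.93 CPM across PBS replicates 1 to 3 and 3.66, 7.74 and 14.7 CPM across DOX replicates 1 to 3. Its groups overlapped (log2 fold change 0.99 with SE 0.55, edgeR adjusted p = 0.282), and without DOX replicate 3 the log2 fold change was 0.39.

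Markers of epithelial cells were summed in the same libraries. The 14 hepatocyte markers, led by Alb and Trf, summed to 289, 548 and 617 CPM across PBS replicates 1 to 3 and to 1215, 481 and 4363 CPM across DOX replicates 1 to 3. All 14 had positive log2 fold changes, but edgeR and limma-voom called 0 of them. DESeq2 called 8 higher, beside 12.3% of its genes, and 12 were higher at an unadjusted p under 0.05, beside 15.9% of all genes. The 8 cholangiocyte markers, led by Spp1 and Krt19, summed to 299 to 655 CPM in PBS and 512 to 645 CPM in DOX, most of it Spp1 (240 to 639 CPM in PBS and 445 to 547 CPM in DOX). The other 7, summed without Spp1 after its share was seen, came to 16.5, 54.6 and 59.1 CPM across PBS replicates 1 to 3 and 66.5, 104 and 98.3 CPM across DOX replicates 1 to 3, with no overlap. All 6 tested had positive log2 fold changes, with a median of 0.96, and 1 of them, Epcam, rose 3.03-fold (edgeR adjusted p = 0.0470). The 10 portal fibroblast and mesothelial markers, led by Krt8 and Fbln2, summed to 144, 323 and 342 CPM across PBS replicates 1 to 3 and 294, 401 and 542 CPM across DOX replicates 1 to 3. Cdh1 and Cdh3 were both highest in DOX replicate 3, as were the hepatocyte and the portal and mesothelial sums. Both were lowest in PBS replicate 1, as were those sums and the cholangiocyte sum without Spp1. Other libraries did not share an order. In DOX replicate 2 the hepatocyte sum was below PBS replicates 2 and 3, while Cdh1 was above every PBS library. Cdh3 was higher in DOX replicate 2 than in DOX replicate 1, and the hepatocyte sum was lower. The cholangiocyte sum without Spp1 was highest in DOX replicate 2. All 7 tested desmosomal genes had positive log2 fold changes, with a median of 1.56, while edgeR and limma-voom called 0. DESeq2 called 3 higher, beside 12.3% of its genes, and 3 were higher at an unadjusted p under 0.05, beside 15.9% of all genes. The part of these cell types in the Cdh1 and Cdh3 values was not tested.

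**Figure D4:**
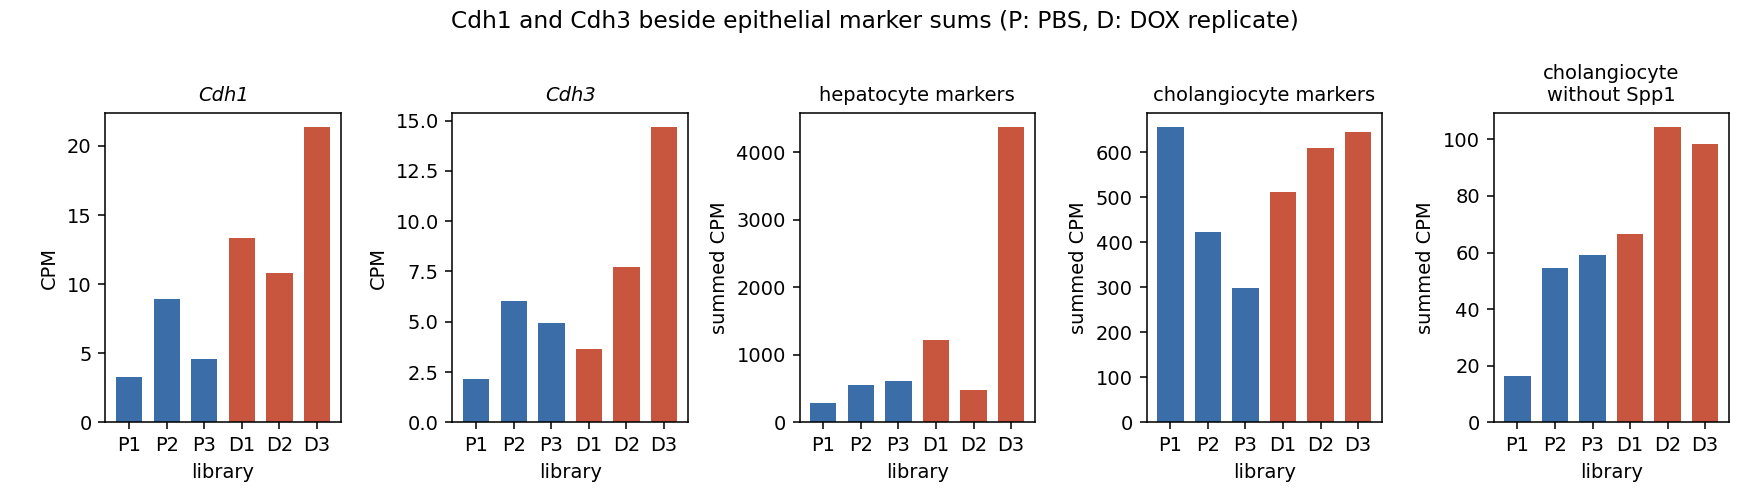
Cdh1 and Cdh3 (CPM) beside the summed CPM of 14 hepatocyte markers and of 8 cholangiocyte markers with and without Spp1, 1 bar per library (P, PBS; D, DOX; axes from 0). DOX replicate 3 has the highest bar for Cdh1, Cdh3 and the hepatocyte sum, and PBS replicate 1 has the lowest for these and for the cholangiocyte sum without Spp1, but the highest for that with Spp1.

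Cdh2 and Cdh4 made up the rest of the tested type I genes. Cdh2 had 34.2, 18.8 and 53.4 CPM across PBS replicates 1 to 3 and 23.0, 27.5 and 27.7 CPM across DOX replicates 1 to 3. The PBS libraries spread around all 3 DOX libraries (log2 fold change -0.44 with SE 0.34, edgeR adjusted p = 0.429), and without PBS replicate 3 it was -0.025. The 16 stellate markers summed to 728, 656 and 1478 CPM across PBS replicates 1 to 3, the order of Cdh2 in that group, and to 1249, 1280 and 807 CPM across DOX replicates 1 to 3, where replicate 3 was lowest for the sum and highest for Cdh2. Per length, Cdh2 was above Cdh1 on average in PBS (3.72 against 1.33 FPKM) and below it in DOX (2.51 against 3.31 FPKM), with PBS replicate 2 and DOX replicate 2 as exceptions: Cdh1 was at 2.13 against 1.99 FPKM of Cdh2 in the former and at 2.30 against 2.60 in the latter. Cdh4, or R-cadherin, had 3.78 ± 0.510 CPM with PBS and 3.55 ± 0.577 CPM with DOX (log2 fold change -0.09 with SE 0.22, edgeR adjusted p = 0.817). Cdh15, the muscle cadherin, had at most 2 counts in a library.

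The atypical members were not called by any of edgeR, DESeq2 and limma-voom, and 0 of the 3 tested had an unadjusted p under 0.05. Cdh13, a cadherin held in the membrane by a lipid anchor and a receptor for adiponectin, had 13.1, 33.6 and 37.2 CPM across PBS replicates 1 to 3 and 24.7, 27.5 and 18.01 CPM across DOX replicates 1 to 3. PBS replicate 1 was the lowest of all libraries, and without it the log2 fold change went from -0.26 (SE 0.37, edgeR adjusted p = 0.688) to -0.60. Cdh23 had 2.00 ± 0.619 CPM with PBS and 1.79 ± 0.419 CPM with DOX, and Cdh17, or liver-intestine cadherin, 0.311 ± 0.117 CPM with PBS and 0.445 ± 0.288 CPM with DOX, with edgeR adjusted p of 0.795 and 0.635. Cdh26 had 0 counts in each PBS library and 1 in each DOX library, which is under the 3 reads that a count of 0 allows.

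Leaving out single libraries changed sizes more than directions for the members with the lowest p. Dchs1 stayed between -1.12 and -1.03 and Pcdh12 between -2.01 and -1.63. Pcdh1 and Fat1 ranged from -0.84 to -0.40 and from -1.14 to -0.57, Fat4 from -0.69 to -0.36, and these 3 were not called with any library left out. Cdh1, which was higher in DOX, ranged from 1.11 to 1.94 and was not called with any library left out either.

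**Figure D5:**
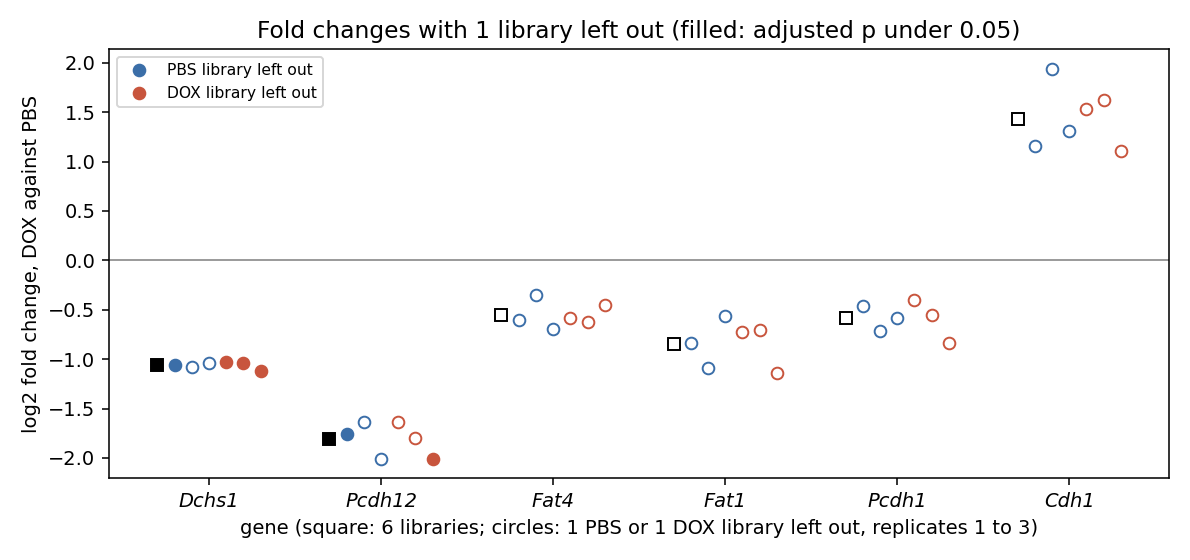
Log2 fold changes of 6 members with all libraries (squares) and with 1 library left out (circles, blue for PBS and red for DOX, replicates 1 to 3 from left to right). Filled symbols passed an adjusted p of 0.05, and only Dchs1 and Pcdh12 have any.

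Members are long genes, and fold changes across the transcriptome differed with length. The gene length behind the deposited FPKM was 3569 to 21561 bases in the tested members and at least 8000 bases in 15 of 23. Of 2027 other tested genes of at least 8000 bases, 65.2% had a negative log2 fold change, with a median of -0.13, and 4.88% were called lower. At an unadjusted p under 0.05, 22.0% of them were lower. Of 810 other genes under 1000 bases, 35.4% were negative, the median was 0.09 and 0.617% were called lower. At an unadjusted p under 0.05, 3.09% of these short genes were lower. The 15 long members had a median of -0.26, with 12 negative. Length classes were chosen after the data were seen, and the part of length in the members' values was not tested. Of the 16 macrophage markers, edgeR called 3 higher (Cd14, C1qb and C1qc), limma-voom 5 and DESeq2 11, each with 0 lower. An unadjusted p under 0.05 was reached by 12, all higher, beside 15.9% of all genes higher. In 12 the groups did not overlap, all higher, beside 16.9% of all genes higher. The part of these markers in the members' values was not tested either.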

How the data were processed

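RNA of 6 libraries was counted per gene symbol. The authors deposited raw counts and, per the file headers, 1 column per sample. The deposited FPKM values equalled counts per kilobase and library total for 100% of genes (relative tolerance 1e-04). The submitters' processing notes list the builds mm10, GRCm38 and hg38 without saying what each was used for, and aligner, counter and strand setting were not given in the sources used here. The main test was edgeR 4.0.16 (quasi-likelihood, TMM, filterByExpr with minimum count 10 and total 15, R 4.3.3) on all 6 libraries, two-sided, with Benjamini-Hochberg adjustment over 14439 genes at a threshold of 0.05. SEs were derived from F statistics, and values after ± are SDs. Ratios added 0.5 to each count and were compared by exact permutation. Alternatives were RLE, upper-quartile and no factors, other filters (none, or 1 CPM in 3 libraries), DESeq2 1.42.0, limma-voom 3.58.1, a robust fit, the replicate block, limma on FPKM (log2 after adding 1 or 0.1, or with a filter of 1 FPKM in 3 libraries) and leaving out each library. The code was tested on simulated counts with the same dispersion for every gene, which real genes need not share. There edgeR recovered 46 of 100 genes changed by 1 on the log2 scale and 96 of 100 changed by 2. DESeq2 recovered 51 and 93, and limma-voom 44 and 96. False calls made up 5.33% of those by edgeR, 13.8% by DESeq2 and 6.04% by limma-voom. Replicates of a group differed beyond sampling noise (chi-square per degree of freedom 29.6 to 62.6). Intervals of a count of 0 cover counting error only. The members, gene lists and naming rule (every tested member, called genes of each list and the 2 most abundant markers) were chosen with earlier results of these data known. Locations are from RefSeq GRCm38.p6, exon overlaps and coding sequences from GENCODE M21.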

Additional observations from a re-analysis of the deposited data

How the results depend on the processing

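Of the 23 tested members, 19 kept their direction in every alternative that tested them. The other 4 took both signs: Cdh23 ranged from -0.36 to 0.086 over the left-out libraries (0.086 without PBS replicate 2), Cdh24 -0.0068 with library totals alone and -0.00096 on log2(FPKM + 1), and Cdh11 0.063 in limma-voom and with the block and -0.36 to 0.34 over the left-out libraries (0.012, 0.34 and 0.17 without PBS replicates 2 and 3 and DOX replicate 1). Pcdh7 was -0.079 with library totals alone, -0.039, -0.043 and -0.039 in the 3 fits on FPKM, and -0.16 to 0.39 over the left-out libraries (-0.052, -0.16, -0.038 and -0.070 without PBS replicates 1 and 2 and DOX replicates 2 and 3). DESeq2 called 2692 genes and 4 members, 1 of them higher. Leaving out single libraries gave 0 to 1090 genes called, 0 to 2 members called (0 without PBS replicate 2 or 3, and 1, Dchs1, without DOX replicate 1 or 2), 0 to 2 lower and 0 higher. Of 18 alternatives, 16 called Dchs1 and 14 called Pcdh12. Set against the macrophage sum in place of the endothelial sum, the log2 differences were -2.01 for Dchs1, -2.75 for Pcdh12, -1.49 for Fat4, -1.14 for Pcdh17, -1.10 for Cdh5 and 0.55 for Cdh1 (1.74 per endothelial count). The sum itself rose in DOX, and the cause of the differences was not tested. With the replicate number as a block, 781 genes (622 higher and 159 lower) and 3 members (all lower) were called. Same-numbered libraries had deviation correlations of 0.09, -0.11 and 0.23, and differently numbered ones ranged from -0.23 to 0.14. With 3 libraries per group, these values cannot tell whether the number pairs libraries. Depth limits the 16 untested members, at 1 to 56 counts in all.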

Other observations

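Clustered protocadherins, a set of neighbouring genes on chromosome 18 from 36960276 to 37841873 (GRCm38.p6) that do not meet the symbol rule, lie 344040 bases from Pcdh1. Of the 46 listed, 38 were tested, and 34 had a negative log2 fold change, with a median of -0.37, beside 51.4% negative and a median of -0.01 over all genes tested. One, Pcdhgc3, fell from 120 ± 15.2 to 82.4 ± 6.09 CPM (SD, n = 3 each, log2 fold change -0.55, edgeR adjusted p = 0.0413), and 8 were lower at an unadjusted p under 0.05, beside 12.7% of all genes. Long genes were more often negative, and the part of length in these values was not tested. Gamma-cluster genes share their last exons, so counting could divide their reads, and these values are uncertain.

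Of 11 tested genes of cadherin shedding and cleavage, DESeq2 called 1 higher, and edgeR and limma-voom called 0. Among these 3 reached an unadjusted p under 0.05, 2 higher and 1 lower, beside 15.9% and 12.7% of all genes. Adam10, the main sheddase of classical cadherins, had 157 ± 15.1 CPM with PBS and 165 ± 6.75 CPM with DOX (edgeR adjusted p = 0.628). Of 12 tested transcriptional regulators of cadherins, DESeq2 called 1 lower, edgeR and limma-voom called 0, and 1 was lower at an unadjusted p under 0.05. Erg, an endothelial ETS factor named after its value was seen, had 141 ± 13.1 CPM with PBS and 97.9 ± 12.3 CPM with DOX (edgeR adjusted p = 0.0506). Of 4 tested cadherin-related genes, DESeq2 called 1 higher, edgeR and limma-voom 0, and 1 was higher at an unadjusted p under 0.05. Among the remaining marker lists, Nkg7 of 6 tested lymphocyte genes and Thy1 of 10 portal fibroblast and mesothelial genes rose (edgeR adjusted p = 0.0278 and 0.0240), and of 9 myofibroblast genes DESeq2 called 2 lower and edgeR and limma-voom 0, with 2 at an unadjusted p under 0.05.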
